A study of Mus musculus with 24 samples.

Results

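Cyp24a1 encodes the mitochondrial cytochrome P450 that inactivates calcitriol, the hormone form of vitamin D, and its messenger RNA was followed through the mouse intestine. It is 1 gene of the 21441 in each deposited table, taken by its symbol. The poly(A) RNA libraries came from 3 intestinal regions of C57BL6J mice of wild-type genotype: the duodenum, the ileum and the colon. The treated group, labelled 3xD, was injected with calcitriol 3 times, 48, 24 and 6 h ahead of termination, at 1 ng per g of body weight each time. The other group, labelled minusD, was vitamin D-deficient with no treatment given in the labels. The values cover 23 libraries, with 4 3xD and 4 minusD libraries for duodenum and for colon, and 4 3xD and 3 minusD libraries for ileum. The labels give ages of 10 to 14 with no unit, and 2 females of 4 among 3xD samples against 1 of 4 among minusD samples in each region.

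Calcitriol acts through the vitamin D receptor, a nuclear receptor that binds DNA with a retinoid X receptor partner. Cyp24a1 is a textbook direct target of that receptor in intestine and kidney. Its enzyme hydroxylates the side chain of calcitriol, which starts the breakdown of the hormone, so the gene forms the negative feedback arm of vitamin D signalling. In the intestine the same receptor also drives genes of calcium absorption, among them the channel gene Trpv6 and the calbindin gene S100g.

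The gene (ENSMUSG00000038567.5) lies on the minus strand of chromosome 2, at 170308208 to 170322645 of the NCBIM37 assembly. Its 1 annotated transcript has 12 exons with 3560 exon bases, of which 1542 are coding. The first exon shares 83 bases, at 170322017 to 170322099, with an exon of Pfdn4, a prefoldin chaperone subunit gene on the opposite strand. That stretch is 2.33% of the exon bases of Cyp24a1, and the sources used here do not say whether reads were counted by strand.

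Libraries are named by their group and column number. In the minusD group 3 columns per region are named Vehicle and 1 is named minusD5718, which the ileum table used here lacks. The whole reads that could be recovered from FPKM numbered 14459914 to 44505583 per library. Region markers followed the labels: Fabp6, an ileal bile acid binding protein gene, stood at 1985 to 10714 FPKM in the ileum and at no more than 280.9 FPKM elsewhere, and Car1, a colonic carbonic anhydrase gene, at 1586 to 8243 FPKM in the colon and at no more than 58.4 FPKM elsewhere. Ileal 3xD5720 had the lowest Fabp6 of its region (1985 FPKM, against 5462 FPKM in the next library). The ileal markers Osr2 (44.0 FPKM) and Fgf15 (0.288 FPKM) were also lowest there. The ileal marker Slc10a2 was instead highest there, at 397.4 FPKM, against 122.7 to 276.1 FPKM in the other ileal libraries. Colonic 3xD5720 carried pancreatic transcripts (Ctrb1 at 9025 FPKM, against at most 710.7 FPKM in other colonic libraries). Depth followed the column names in the colon, at 14459914 to 22808420 reads in libraries with 4-digit numbers and 26761715 to 29418797 in serial ones.

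In the duodenum, calcitriol-treated libraries held abundant Cyp24a1 and deficient libraries almost none. Cyp24a1 stood at 312.9 FPKM in 3xD 1, 64.9 in 3xD5711, 367.5 in 3xD5720 and 640.5 in 3xD5734. In minusD duodenum it stood at 0.418 FPKM in minusD5718, 0.0185 in Vehicle 1, 0.0112 in Vehicle 2 and 0.00846 in Vehicle 3. The groups did not overlap: the lowest 3xD library lay 155-fold above the highest minusD library, and among all 11734 duodenal genes tested 1.99% had every 3xD library above every minusD library. The means were 346.5 ± 236.2 FPKM in 3xD and 0.114 ± 0.203 FPKM in minusD (SD, n = 4 each). Cyp24a1 rose by 7.91 ± 0.59 on the scale of log2(FPKM + 1), which understates changes of genes near 0 (SE; 95% interval 6.58 to 9.24; limma, Benjamini-Hochberg adjusted p = 0.0034). It ranked 1st of all tested genes both by log2 difference and by p, and was the 1 gene called higher (0.00852% of those tested), while 2 were called lower. With voom fitted to recovered reads the difference was 12.7 (adjusted p = 0.011). An exact permutation test of Cyp24a1 alone gave two-sided p = 0.0286, the smallest that 4 against 4 libraries allow.

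In the ileum, Cyp24a1 was again present in every 3xD library and nearly absent from every minusD library, but its level spread over a 102-fold range within the 3xD group. It stood at 6.12 FPKM in 3xD 1, 40.3 in 3xD5711, 543.1 in 3xD5720 and 5.34 in 3xD5734, against 0.0265 FPKM in Vehicle 1, 0.0157 in Vehicle 2 and 0.153 in Vehicle 3. A single library, 3xD5720, thus carried most of the ileal signal, and it is the library with low Fabp6 and high Slc10a2. The lowest 3xD library lay 35.0-fold above the highest minusD library, and 3.35% of 12149 tested genes were apart in that direction. The log2 difference of 4.90 ± 1.40 (SE; 95% interval 1.69 to 8.11) was the largest of all tested genes, ahead of S100g at 2.87, but did not pass (limma, adjusted p = 0.706; unadjusted p = 0.00775, rank 75). No ileal gene was called higher (0%) by limma. An unadjusted p under 0.05 was found for 709 genes, 3.09% of those tested being higher and 2.74% lower in 3xD. By voom 1 gene was called, and Cyp24a1 had a difference of 9.01 (adjusted p = 0.337). The exact permutation test gave p = 0.0571, the smallest that 4 against 3 libraries allow. Without 3xD5720 the difference was 3.53, and adjusted p = 0.869. The part of the library's other differences in the Cyp24a1 value was not tested.

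In the colon, 3 of the 4 3xD libraries held abundant Cyp24a1 and the fourth held little, though still more than any deficient library. It stood at 2.67 FPKM in 3xD 1, 107.8 in 3xD5711, 369.7 in 3xD5720 and 276.5 in 3xD5734. In minusD colon it stood at 0.0183 FPKM in minusD5718, 0.0108 in Vehicle 1, 0.0107 in Vehicle 2 and 0.0814 in Vehicle 3. The groups were apart, by 32.8-fold between the lowest 3xD and the highest minusD library, as were 2.22% of 12746 tested genes. The means were 189.2 ± 165.0 FPKM in 3xD and 0.0303 ± 0.0343 FPKM in minusD (SD, n = 4 each). The log2 difference of 6.28 ± 1.26 (SE; 95% interval 3.44 to 9.12) again exceeded that of every other tested gene, S100g coming next at 4.93, but did not pass (limma, adjusted p = 0.456; unadjusted p = 0.000751, rank 21). No colonic gene was called higher (0%) by limma. An unadjusted p under 0.05 was found for 746 genes, 2.92% of those tested being higher and 2.93% lower in 3xD. By voom 0 genes were called, and the Cyp24a1 difference was 11.2 (adjusted p = 0.791). Without 3xD 1 the difference was 7.76 and passed (limma, adjusted p = 0.0005). The exact permutation test over all 8 libraries gave p = 0.0286, again the smallest possible.

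**Figure D1:**
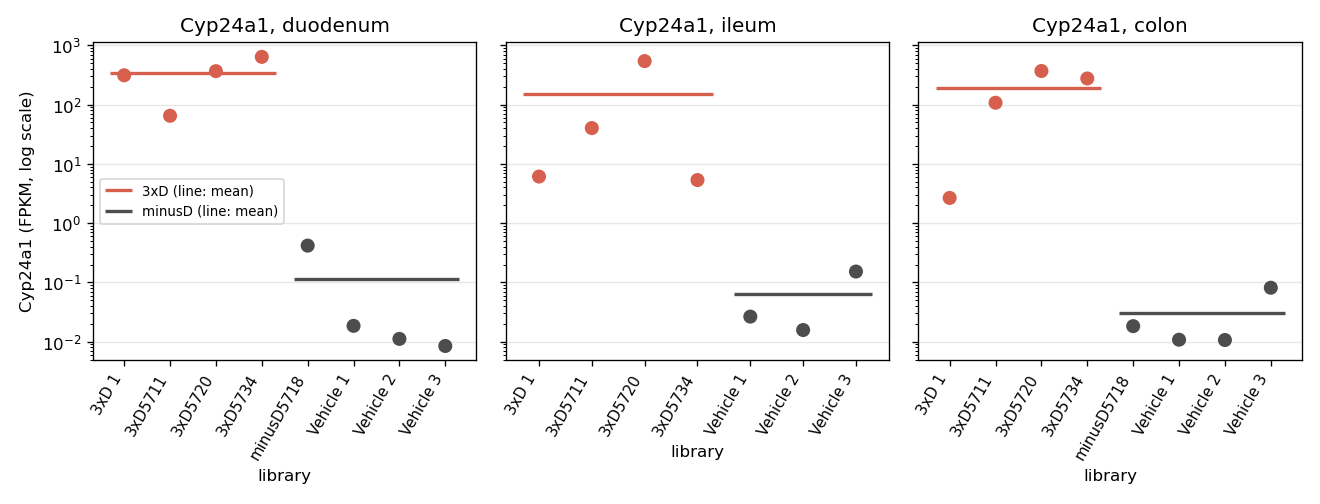
Cyp24a1 in FPKM on a log axis for each library of the duodenum, ileum and colon, with 3xD libraries on the left of each panel, minusD libraries on the right and a line at each group's mean. Every 3xD point lies above every minusD point of its region; the 3xD points span 64.9 to 640.5 FPKM (duodenum), 5.34 to 543.1 FPKM (ileum) and 2.67 to 369.7 FPKM (colon).

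The reads behind these values show how empty the deficient libraries were. Cyp24a1 had 147091 recovered reads over the 12 3xD libraries and 54 over the 11 minusD libraries. Single 3xD libraries held 228 to 34847 reads. Of the 54 minusD reads, 21 came from duodenal minusD5718, 14 from ileal Vehicle 3 and 8 from colonic Vehicle 3, and the other 8 libraries held 1 or 2 reads each. Pooled by region, Cyp24a1 stood at 0.181 reads per 1000000 recovered reads (RPM) in minusD duodenum (exact Poisson 95% interval 0.117 to 0.268), 0.171 in minusD ileum (0.101 to 0.270) and 0.108 in minusD colon (0.0537 to 0.193). These intervals overlap, and they cover counting error only. In single libraries, duodenal minusD5718 stood at 0.823 RPM (0.509 to 1.26) and duodenal Vehicle 1 at 0.0556 (0.00673 to 0.201), so the spread among deficient libraries exceeded counting error there. In bulk tissue, fewer cells of a type and less RNA per cell cannot be told apart, so neither can a few cells with the transcript and a low level in many.

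Ranked by FPKM within its own library, which corrects for length, Cyp24a1 stood 222nd of all genes in duodenal 3xD5734 and 201st in ileal 3xD5720. In colonic 3xD 1 it stood 10051st. Its rank in minusD libraries lay between 12878th and 16893rd. The 3xD libraries thus included some in which few transcripts exceeded Cyp24a1 and one in which 10050 genes did.

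The spread of Cyp24a1 among 3xD libraries was wide beside that of most genes. Its SD on the log2 scale was 1.41 in the duodenum, 3.00 in the ileum and 3.06 in the colon, against medians over all tested genes of 0.20, 0.22 and 0.27. By that SD it ranked 94th of 11734 genes in the duodenum, 5th of 12149 in the ileum and 26th of 12746 in the colon. Vdr, the receptor gene, had SDs of 0.21, 0.30 and 0.20 in those libraries. Slc30a10, a manganese exporter gene that is also a vitamin D target, had SDs of 0.16, 0.95 and 0.77. Other targets were also spread: S100g had SDs of 0.91, 1.19 and 0.68, and Cldn2, a claudin gene, had 0.94, 0.82 and 0.69. Trpv6 was spread slightly more than Cyp24a1 in the duodenum (SD 1.44, 88th, against 1.41) and less in the colon (0.67).

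Levels in treated mice were compared between regions in RPM, since the tables were normalized separately. The 3xD means on the scale of log2(RPM + 0.1) were 9.23 ± 1.49 in the duodenum, 7.78 ± 3.17 in the colon and 6.08 ± 2.59 in the ileum (SD, n = 4 each). The duodenum stood 3.15 above the ileum (exact permutation test, two-sided p = 0.0857, adjusted over 3 pairs 0.257). It stood 1.45 above the colon (exact p = 0.571, adjusted 0.571), and without colonic 3xD 1 this difference was -0.11. The ileum lay 1.70 below the colon (exact p = 0.429, adjusted 0.571). No neighbours in this order differed beyond the spread of the libraries.

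The responses were also compared between regions. The response in the duodenum exceeded that in the ileum by 3.01 ± 1.82 in log2 (SE; 95% interval -0.78 to 6.80; limma interaction, adjusted p = 0.825) and that in the colon by 1.63 ± 1.75 (-2.02 to 5.27; adjusted p = 1). The response in the ileum minus that in the colon was -1.38 ± 1.82 (-5.17 to 2.41; adjusted p = 0.965). None of the 11234 genes tested in all regions was called in any of these contrasts (0%), and 516, 176 and 354 had an unadjusted p under 0.05 in the order given; voom called 1, 1 and 0. With intervals this wide, the call in the duodenum and its absence elsewhere do not show that the regions differ.

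Libraries of the same column number were set side by side across regions, although the labels do not say that a number marks 1 animal. Column 3xD5720 had similar Cyp24a1 everywhere, at 658.4 RPM in the duodenum, 687.6 in the ileum and 754.7 in the colon. Column 3xD5711 was moderate throughout, at 140.2, 111.5 and 377.0 RPM in that order of regions. Column 3xD5734 was highest of all in the duodenum (1561) and high in the colon (954.8), but 104-fold lower in the ileum (15.0). Column 3xD 1 had 895.7 RPM in the duodenum, 17.9 in the ileum and 8.52 in the colon, so its duodenum stood 105-fold above its colon. Neither the order of the numbers nor the order of the regions was therefore fixed. Among minusD libraries, Vehicle 3 was the highest in ileum (0.381) and colon (0.272) but the lowest in the duodenum (0.0225).

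**Figure D2:**
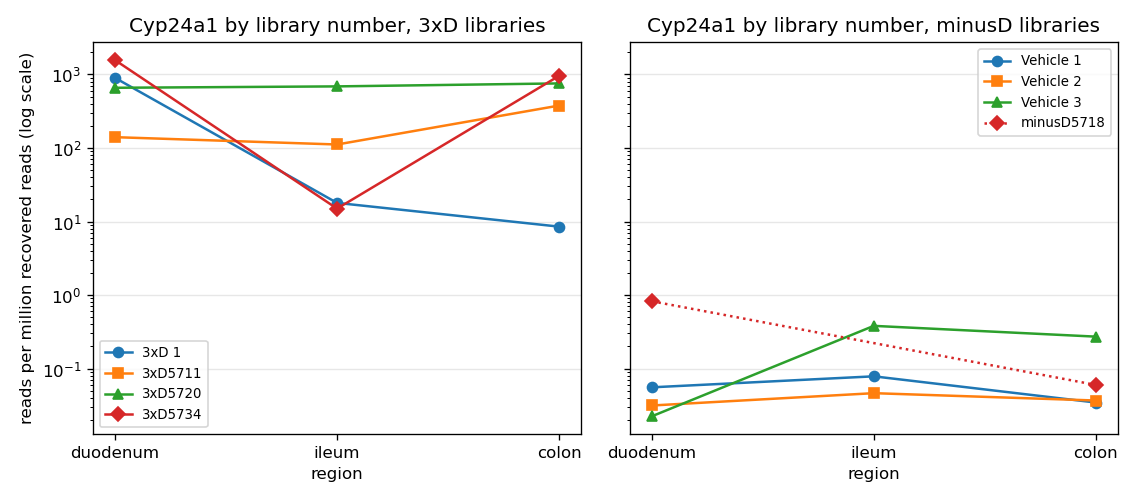
Cyp24a1 in reads per 1000000 recovered reads, on a log axis, by region, with 3xD libraries in the left panel, minusD libraries in the right and lines joining libraries of the same column number. The line for 3xD5720 is nearly flat at 658.4 to 754.7, while 3xD5734 drops to 15.0 in the ileum and 3xD 1 to 8.52 in the colon; minusD5718 has no ileal value.

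The column names split the libraries into a serial scheme (3xD 1 and the 3 Vehicle columns) and a 4-digit scheme, which nearly coincides with treatment. Within the serial scheme, 1 3xD library against 3 minusD libraries, the Cyp24a1 difference was 8.28 in the duodenum, 2.74 in the ileum and 1.83 in the colon. Within the 4-digit scheme, 3 against 1, it was 7.46 in the duodenum and 7.78 in the colon, while the ileum has no minusD library. Treated libraries were higher within both schemes wherever both groups existed. With the scheme in the fit, the duodenal difference was 7.87 (limma, adjusted p = 0.0452), the ileal one 2.74 and the colonic one 4.80.

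The other targets measured in the labels' quantitative PCR panel had smaller log2 differences than Cyp24a1 and ranked the libraries differently. S100g encodes calbindin-D9k, the cytosolic calcium carrier of the enterocyte. In the colon it stood at 5542 FPKM in 3xD 1, 4329 in 3xD5711, 1898 in 3xD5720 and 4367 in 3xD5734, against 21.2 to 393.9 FPKM in the minusD libraries. The colonic library with the least Cyp24a1, 3xD 1, thus had the most S100g. The one with the most Cyp24a1 by FPKM, 3xD5720, had the least S100g. By RPM colonic Cyp24a1 was instead highest in 3xD5734 (954.8, against 754.7 in 3xD5720), which held 4367 FPKM of S100g. In the duodenum S100g was likewise lowest in 3xD5720, at 3146 FPKM, below minusD5718 at 3873 FPKM, so the groups overlapped there. In the ileum S100g stood at 261.5 to 1869 FPKM in 3xD and 16.5 to 1339 FPKM in minusD libraries, which also overlapped. The log2 differences of S100g were 2.41 in the duodenum, 2.87 in the ileum and 4.93 in the colon, and none passed (limma, adjusted p = 0.499, 0.706 and 0.275).

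Trpv6, the apical calcium entry channel gene, stood at 57.2 FPKM in colonic 3xD 1, 69.5 in 3xD5711, 35.8 in 3xD5720 and 111.0 in 3xD5734, against 0.0461 to 4.83 FPKM in minusD colon. Colonic 3xD 1 therefore had Trpv6 in the range of its group while its Cyp24a1 was under 1% of the highest library's (0.721%). In the duodenum Trpv6 stood at 5.10 to 62.5 FPKM in 3xD and 0.0479 to 5.01 FPKM in minusD libraries. The log2 differences were 4.46 in the colon (limma, adjusted p = 0.109) and 3.00 in the duodenum (adjusted p = 0.483). In the ileum Trpv6 stayed under the filter, at no more than 0.506 FPKM, and its relative Trpv5 stayed under it in every region.

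Slc30a10 stood at 87.7 to 112.2 FPKM in 3xD and 14.1 to 62.5 FPKM in minusD duodenum. The groups did not overlap, as for 1.99% of all duodenal genes tested in that direction. In the ileum it was highest in 3xD5720, the library with the most Cyp24a1, at 121.2 FPKM, against 26.0 to 50.1 FPKM in the other 3xD libraries and 2.32 to 19.9 FPKM in minusD libraries. In the colon it was lowest among 3xD libraries in 3xD 1, at 42.8 FPKM, where the other 3 held 66.5 to 155.9 FPKM and minusD libraries 2.31 to 18.4 FPKM. The log2 differences were 1.26, 2.57 and 3.08 in duodenum, ileum and colon, and none passed (limma, adjusted p = 0.499, 0.706 and 0.345). Slc37a2, a sugar-phosphate transporter gene, differed by 1.76 in the duodenum, 0.00012 in the ileum and -0.71 in the colon (limma, adjusted p = 0.499, 1 and 0.900), so it did not share the direction of Cyp24a1 in every region.

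**Figure D3:**
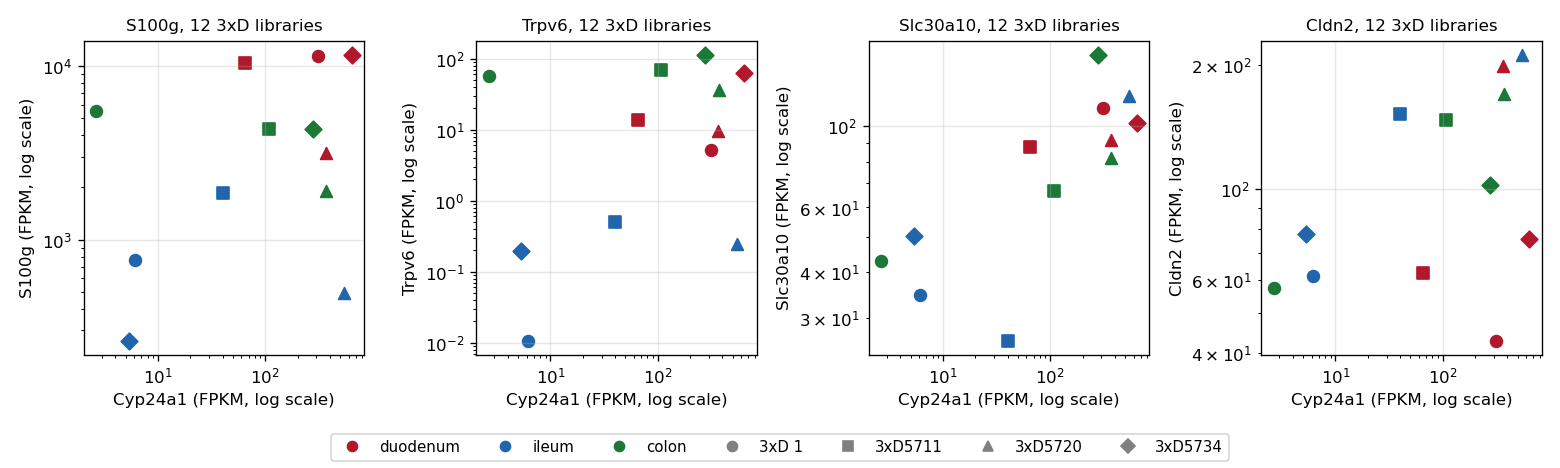
S100g, Trpv6, Slc30a10 and Cldn2 against Cyp24a1 in the 12 3xD libraries, all in FPKM on log axes, with colour for the region and marker shape for the column number. Colonic 3xD 1, at 2.67 FPKM of Cyp24a1, has the highest colonic S100g (5542 FPKM) and the lowest colonic Slc30a10 (42.8 FPKM).

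Across the list of intestinal vitamin D targets beside Cyp24a1, 9 of 11 genes passed the filter in each region, and none passed the test in either direction in any region or by voom. In the duodenum 9 of 9 differences were positive and 6 had an unadjusted p under 0.05, as did 4.03% of all duodenal genes in that direction, with a median log2 difference of 1.36, against 0.01 over all genes tested. In the ileum 6 of 9 were positive, 1 had such a p with a higher level in 3xD (3.09% of all genes), and the median was 0.20, against 0.01 over all genes. In the colon 7 of 9 were positive, 4 had such a p with a higher level in 3xD (2.92% of all genes), and the median was 0.55, against -0.01 over all genes. Every 3xD library exceeded every minusD library for 3 of the 9 in the duodenum, 1 in the ileum and 4 in the colon, beside the 1.99%, 3.35% and 2.22% of all genes given above. Among colonic genes Atp2b1, the basolateral calcium pump gene, stood at 114.4 ± 10.7 FPKM in 3xD and 55.4 ± 8.66 FPKM in minusD libraries (SD, n = 4 each; log2 difference 1.04; limma, adjusted p = 0.109). Cldn2, which encodes a cation-permeable tight junction claudin, stood at 94.9 ± 70.8 FPKM in 3xD and 28.1 ± 7.66 FPKM in minusD duodenum (SD, n = 4 each; log2 difference 1.51; limma, adjusted p = 0.499). Among 3xD libraries Cldn2 was highest in 3xD5720 of each region, at 199.1 FPKM in the duodenum, 210.7 in the ileum and 170.4 in the colon. In the ileum its difference was 0.89 and that of Atp2b1 0.33 (limma, adjusted p = 0.706 for both).

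**Figure D4:**
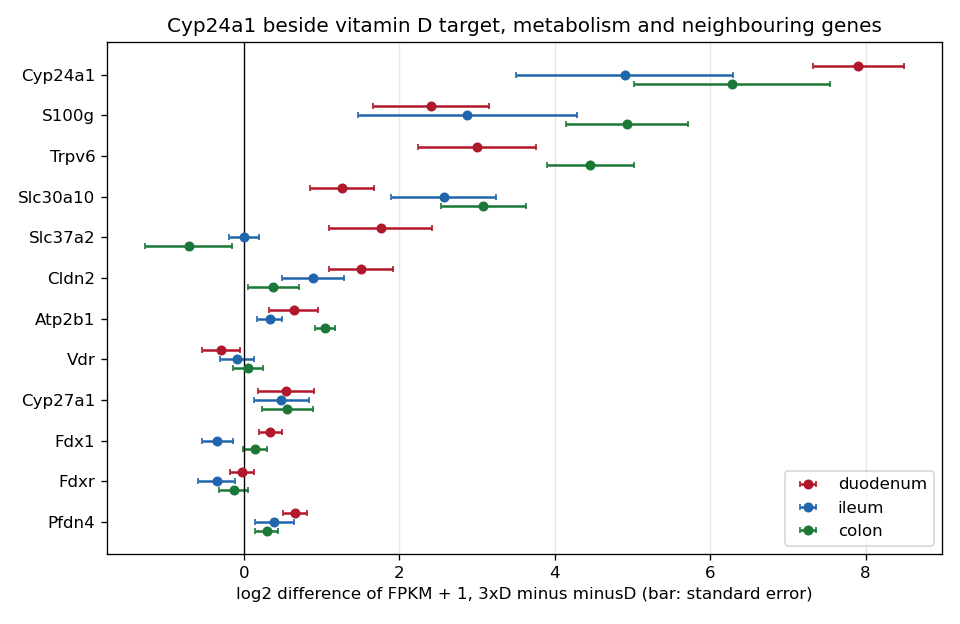
Log2 difference of FPKM + 1, 3xD minus minusD, with standard errors, for Cyp24a1 and for target, receptor, metabolism and neighbouring genes in the duodenum, ileum and colon. Cyp24a1 lies farthest right at 7.91, 4.90 and 6.28; Trpv6 has no ileal point because it lay under the filter there.

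No other enzyme gene of vitamin D metabolism passed the test. Cyp27b1, the enzyme gene that makes calcitriol, stood at 0 to 0.203 FPKM over all 23 libraries and never passed the filter. Cyp27a1, a mitochondrial sterol hydroxylase gene with vitamin D hydroxylase activity, stood at 72.3 ± 25.8 FPKM in 3xD and 49.3 ± 21.9 FPKM in minusD duodenum (SD, n = 4 each). Its log2 differences were 0.54, 0.48 and 0.56 in duodenum, ileum and colon (limma, adjusted p = 0.607, 0.712 and 0.885). Cyp3a11, a drug-metabolizing P450 gene, stood at 811.5 ± 202.1 FPKM in 3xD and 408.2 ± 302.6 FPKM in minusD duodenum (SD, n = 4 each; log2 difference 1.36; limma, adjusted p = 0.528). The related Cyp3a13 differed by 0.32, 0.31 and 0.38 in duodenum, ileum and colon, Cyp3a25 by 0.29 in the colon, and Dhcr7, the sterol reductase gene that consumes the vitamin D precursor, by -0.28 in the duodenum and -0.19 in the ileum. Of the 10 genes of vitamin D hydroxylation and binding beside Cyp24a1, 7, 6 and 6 passed the filter in the 3 regions and none passed the test. Their median differences were 0.29, 0.07 and 0.26, with 1, 0 and 0 higher at an unadjusted p under 0.05, against 4.03%, 3.09% and 2.92% of all genes, and none called by voom.

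Mitochondrial P450 enzymes receive electrons through ferredoxin reductase and ferredoxin. Fdx1, the ferredoxin gene, stood at 56.3 ± 11.1 FPKM in 3xD and 43.9 ± 4.25 FPKM in minusD duodenum (SD, n = 4 each), and Fdxr, the reductase gene, at 7.39 ± 1.91 FPKM in 3xD and 7.37 ± 0.458 FPKM in minusD duodenum. The log2 differences of Fdx1 were 0.34, -0.34 and 0.14 in duodenum, ileum and colon, those of Fdxr -0.02, -0.35 and -0.13, and those of Fdx1l, a second ferredoxin gene, 0.28, -0.22 and 0.28. None of these 3 genes passed in any region, and the number higher at an unadjusted p under 0.05 was 1 in the duodenum, where 4.03% of all genes were, and 0 in ileum and colon. Of the other 5 mitochondrial P450 genes, Cyp27a1 alone passed the filter.

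Vdr was expressed in every library. It stood at 76.6 to 108.5 FPKM in 3xD and 66.7 to 152.7 FPKM in minusD duodenum, at 53.4 to 83.3 FPKM in 3xD and 59.9 to 98.7 FPKM in minusD ileum, and at 100.9 to 139.4 FPKM in 3xD and 80.2 to 141.5 FPKM in minusD colon. The groups overlapped in each region, and colonic 3xD 1 and ileal 3xD5734, both low in Cyp24a1, had 100.9 and 81.7 FPKM of Vdr. The 12 genes of the receptor, its partners and coregulators held 10, 11 and 11 past the filter in duodenum, ileum and colon. None passed the test or was called by voom, their medians were -0.09, 0.13 and -0.11, and 1 coactivator gene in the duodenum, Ncoa2, had an unadjusted p under 0.05, as did 5.37% of all duodenal genes in that direction (log2 difference -0.64; limma, adjusted p = 0.499). No listed gene of ileum or colon had such a p, where 2.74% and 2.93% of all genes were lower at it. The next smallest p in the duodenum belonged to the coactivator gene Ncoa3 (-0.21) and Pdia3 (0.20). In the ileum the smallest belonged to Med1 (0.18), Snw1 (-0.15) and Ncoa2 (0.39), and in the colon to Ncoa3 (-0.31); the partner gene Rxrb (-0.31) was also among the 3 lowest there. In colonic 3xD 1 the partner gene Rxra stood at 0.409 FPKM, below the other libraries of the colon. The part of this value in its low Cyp24a1 was not tested.

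No other gene near Cyp24a1 on the chromosome passed the test. The annotation places 16 other genes within 500 kb of Cyp24a1, of which 7 are in the tables, and of these 5, 5 and 6 passed the filter in duodenum, ileum and colon. None was called by voom either. Their median differences were 0.12, 0.07 and 0.14, against 0.01, 0.01 and -0.01 over all genes. The number higher at an unadjusted p under 0.05 was 1, 0 and 0, against 4.03%, 3.09% and 2.92% of all genes. That 1 was duodenal Pfdn4 (limma, unadjusted p = 0.00203). Pfdn4, which shares the 83 exon bases, stood at 24.1 to 30.5 FPKM in 3xD and 12.8 to 21.6 FPKM in minusD duodenum. The groups did not overlap, as for 1.99% of all duodenal genes tested in that direction. Its log2 differences were 0.66 in the duodenum, 0.39 in the ileum and 0.29 in the colon (limma, adjusted p = 0.479, 0.706 and 0.863). The share of shared-exon reads in Pfdn4 was not tested. On the other side Bcas1, the nearest gene that the tables hold, stood at 3.95 to 7.90 FPKM in duodenal, 10.1 to 22.4 FPKM in ileal and 41.6 to 61.6 FPKM in colonic libraries. Zfp217, Tshz2 and Dok5 stood at 0.871 to 11.9 FPKM over all libraries, A630075F10Rik at 0.55 to 1.99, and 4930470P17Rik at 0 to 0.069.

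Genes whose pattern was most like that of Cyp24a1 were taken by Pearson's r on log2(FPKM + 1), among the 11233 other genes past the filter in all regions. Over the 23 libraries, centred on each region's mean, the 5 highest were Ifrd1 (r = 0.90), Stard5 (0.83), Pdha1 (0.82), Ube2d3 (0.82) and Hmga2 (0.82), where the median over all genes was 0.02. In all, 13 genes had an r over 0.8, and the lowest r was -0.83. Pdha1 encodes a pyruvate dehydrogenase subunit, Ube2d3 a ubiquitin-conjugating enzyme and Hmga2 a chromatin-binding protein. These values include the step between the groups, which nearly coincides with the naming scheme that colonic depth followed. All genes were read in the same libraries, so they share region and depth with Cyp24a1. Ifrd1, named for interferon-related developmental regulation, stood at 85.9 to 107.8 FPKM in 3xD and 43.0 to 66.1 FPKM in minusD duodenum, and its highest ileal value, 114.2 FPKM, was in 3xD5720. In the ileum its groups overlapped (lowest 3xD 42.7 FPKM, highest minusD 44.2 FPKM). Stard5, a lipid transfer protein gene, was highest in 3xD5720 in the duodenum (57.4 FPKM) and the ileum (13.7 FPKM). In the colon Stard5 was highest in 3xD5734, at 62.2 FPKM, against 45.5 FPKM in 3xD5720. Both genes were chosen by r over these same libraries, so their values add no separate support. With a pseudocount of 0.1, 3 of these 5 genes remained among the 5 highest.

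Within the 12 3xD libraries alone, centred on each region's 3xD mean, the 5 highest were Arl6ip6 (r = 0.94), Ttc39b (0.94), Tank (0.93), Necap1 (0.93) and Ets2 (0.92), and all 5 remained with a pseudocount of 0.1. Values of this size were not limited to these 5. Of 11233 genes, 10 had an r over 0.9 and 162 over 0.8, the median was 0.04 and the lowest r was -0.94. Ets2 encodes a transcription factor, Tank an adaptor of TRAF signalling and Necap1 a protein of clathrin-coated vesicles. Leaving out the 2 libraries farthest from the median of Cyp24a1 gave 0.91, 0.83, 0.86, 0.82 and 0.78. Ttc39b stood at 9.60 FPKM in colonic 3xD 1 and at 18.4 to 22.95 FPKM in the other colonic 3xD libraries, and at 13.9 FPKM in ileal 3xD5720 against 5.54 to 7.97 FPKM in the other ileal ones. Arl6ip6 moved far less, between 8.66 and 15.6 FPKM over the 12 libraries. The 2 sets of 5 genes had no gene in common. The 3xD against minusD difference, which this choice did not use, was 0.20, 0.22 and 0.06 for Arl6ip6 and 0.26, 0.64 and 0.42 for Ttc39b in duodenum, ileum and colon, and none of these passed (limma, adjusted p between 0.535 and 0.957). Tank, Necap1 and Ets2 were not called in any region either. Among established targets, r within the 3xD libraries was 0.72 for Slc30a10 and 0.70 for Cldn2, but -0.15 for S100g, -0.01 for Atp2b1 and -0.30 for Vdr. Without the 2 farthest libraries the value was 0.40 for Slc30a10, 0.54 for Cldn2 and 0.06 for S100g. Krt8, an epithelial keratin gene, had r = -0.82, and -0.58 without those libraries. A negative r was not limited to it. The epithelial marker Epcam had -0.64 (-0.33 without those libraries) and the smooth muscle marker Acta2 had -0.55 (-0.37).

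**Figure D5:**
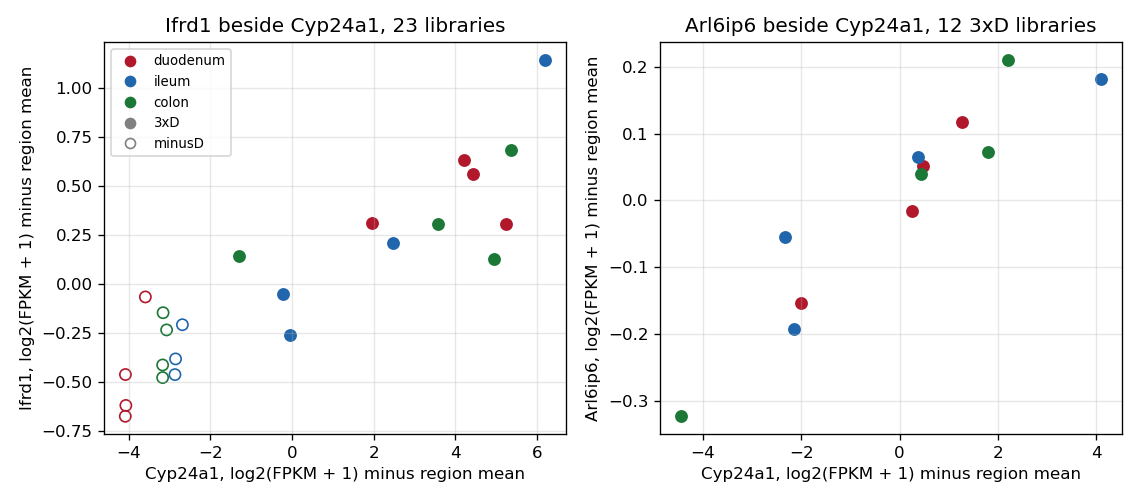
Ifrd1 against Cyp24a1 over the 23 libraries (left) and Arl6ip6 against Cyp24a1 over the 12 3xD libraries (right), each as log2(FPKM + 1) minus the mean of its region, with filled points for 3xD and open points for minusD. The points rise together, at r = 0.90 and r = 0.94, and the vertical range of Arl6ip6 is much smaller than the horizontal range of Cyp24a1.

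Summed markers of cell types varied between libraries along with some of these values. The summed FPKM of 6 epithelial markers stood at 3537 to 4934 in 3xD and 4074 to 5440 in minusD duodenum, at 3911 to 7093 in 3xD and 6313 to 7484 in minusD ileum, and at 4123 to 7325 in 3xD and 5753 to 6117 in minusD colon. The 7 lymphocyte markers summed to 16.7 to 69.8 in 3xD and 55.4 to 95.2 in minusD duodenum, to 19.4 to 122.7 in 3xD and 23.9 to 98.4 in minusD ileum, and to 14.6 to 30.3 in 3xD and 24.9 to 37.1 in minusD colon. Library 3xD5720 had the lowest epithelial and the lowest lymphocyte sum of all libraries in each region. By FPKM its Cyp24a1 was the highest of the ileum and colon and second in the duodenum. By RPM its Cyp24a1 was the highest in the ileum only. In the colon it stood at 754.7 RPM, below 954.8 in 3xD5734. In the duodenum it stood at 658.4 RPM, below 1561 in 3xD5734 and 895.7 in 3xD 1. The epithelial markers did not all follow their sum. In 3xD5720 Krt8 was lowest in each region (1045, 1143 and 1861 FPKM in duodenum, ileum and colon). Its duodenal Krt18 was the highest of the region (156.1 FPKM). Its colonic Cdh1, at 248.3 FPKM, lay within the minusD range of 185.2 to 293.8 FPKM. Stomach markers, with 9 of 10 in the tables, summed to 137.9 to 9111 in 3xD and 39.5 to 12329 in minusD duodenum but to no more than 39.2 in ileum and colon. In the duodenum these sums followed the naming scheme: the 4 libraries with 4-digit numbers, 3 of them 3xD and 1 minusD, stood at 6223 to 12329, and the 4 serial libraries, 1 of them 3xD and 3 minusD, at 39.5 to 214.2. The duodenal Cyp24a1 difference was 7.46 among the libraries with high sums and 8.28 among those with low sums. These are the naming-scheme differences given above, each with 1 library on one side. Stomach content and naming scheme therefore cannot be told apart here. Pancreatic markers reached 26443 in the duodenum and 18578 in colonic 3xD5720. At the level of single genes, 1 stomach marker was at 0 in every ileal library, and no marker of these lists was at 0 throughout another region. The part of the epithelial, lymphocyte, stomach and pancreatic markers in the Cyp24a1 values was not tested.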

How the data were processed

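Per the labels' protocols, an NEBNext Ultra II kit made the libraries and CLC Genomics Workbench mapped the reads. Without roles, the submitters' processing notes list mm9, DESeq2, DESeq 1.14.0 and kallisto 0.45.0. The authors deposited FPKM per gene symbol. The 8-library ileum table equals the duodenum table in 171528 of 171528 values, so the 7-library ileum table was used, which departs from the planned 4 against 4. Vehicle columns were taken as minusD, since the tables compare those groups. Columns could not be tied to the labels' replicate numbers, sex or age, and nothing says whether replicates were separate animals, so p-values measure only the spread between these libraries.

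FPKM steps gave whole reads (within 0.0001) for 83.6%, 83.5% and 83.4% of genes above 0 in 3 or more libraries of duodenum, ileum and colon (14023, 14088 and 14334 of the 21441 genes). Depth covers those genes only.

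Genes that reached 1 FPKM in 3 or more libraries of a region entered limma 3.58.1 (trend, R 4.3.3) as log2(FPKM + 1), two-sided, Benjamini-Hochberg over all genes at 0.05. Interactions came from a fit of 6 group means. Permutation tests used SciPy 1.17.1. The limma steps were tested on simulated data. Positions came from gencode vM1. Named genes were the quantitative PCR panel, the 5 genes most like Cyp24a1 in each set, the 3 smallest p per list and region, and neighbours within 500 kb; 1 gene so named is not reported here. Rxra, Fabp6, Slc10a2, Osr2, Fgf15, Ctrb1, Krt8, Krt18, Cdh1, Epcam and Acta2 were named after their values were seen. Gene, lists and tests were chosen with earlier results of these data known. Alternatives were the pseudocount, filter, rescaling, voom, a shared fit, the naming scheme, the 7-library tables, the replicate block and each library left out.

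Deviations from group means correlated over 0.1 between same-numbered libraries in 7 of 7 pairs of duodenum and ileum, 7 of 8 of duodenum and colon, and 6 of 7 of ileum and colon.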

Additional observations from a re-analysis of the deposited data

Results flagged for a closer look

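In the 3xD ileum, Cyp24a1 was 543.1 FPKM in 3xD5720, with a gap to the next library of 0.935 of the group's range. In the minusD duodenum it was 0.418 FPKM in minusD5718 (0.975 of the range), which rests on 21 reads. In the minusD colon it was 0.0814 FPKM in Vehicle 3 (0.892 of the range), which rests on 8 reads. Among panel genes in the 3xD duodenum, S100g was low in 3xD5720 at 3146 FPKM (0.870 of the range) and Trpv6 high in 3xD5734 at 62.5 FPKM (0.854). Each lies past Dixon's critical value of 0.829 for 4 libraries. In all, 25 groups of 4 were examined and 5 flagged. For normally distributed values chance flags about 5% of groups. The ratio was taken on FPKM without logs, some groups rest on few reads, and the same libraries recur across genes. That rate therefore need not hold here.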

How the results depend on the processing

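The duodenal rise of Cyp24a1 kept its direction and passed under all 10 alternatives of scale, filter, rescaling, tool, table and naming scheme (log2 7.85 to 12.7) and in all 8 fits with a library left out (7.48 to 8.58). The ileal difference stayed positive and passed in none of 9 such alternatives (2.74 to 9.01) and none of 7 leave-one-out fits (3.53 to 5.67). The colonic difference passed in none of 10 alternatives (4.80 to 11.2) and, among leave-one-out fits (5.54 to 7.76), only without 3xD 1. The larger values came from smaller additions to values near 0. In the 3xD libraries, duodenum minus colon ranged between -0.11 (reversed) and 2.15 with a library left out, duodenum minus ileum between 2.43 and 4.27, and ileum minus colon between -3.26 and -0.98. The interactions ranged between 2.23 and 4.37, 0.14 and 2.36, and -2.86 and -0.61 in the order given in the text, and none passed. With the library number as a replicate block they were 3.04, 1.63 and -1.41, and the block changed no call for Cyp24a1 (genes called 0, 0 and 1). With a pseudocount of 0.1, 3 of the 5 genes most like Cyp24a1 over 23 libraries were retained.

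Among named genes that did not pass, some turned sign. Slc37a2 in the ileum was -0.0349 and -0.00915 with pseudocounts of 0.1 and 0.5, -0.00392 with median-ratio size factors, and -0.0714 to -0.00439 without Vehicle 1 or Vehicle 3. With the naming scheme in the fit, Cyp3a13 was -0.29 in the ileum and -0.0733 in the colon, ileal Dhcr7 0.12, ileal Cyp27a1 -0.0322, and Fdxr 0.0213 in the duodenum and 0.0797 in the colon. Duodenal Fdxr ranged between -0.16 and 0.0893 with a library left out, and was positive without 3xD5711, 3xD5720 (0.0307) or Vehicle 2 (0.0154). Colonic Fdx1 was -0.00986 by voom and -0.00421 without 3xD 1. The cause was not tested. Depth limits minusD values of 1 or 2 reads.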
